A study of Mus musculus with 16 samples.

Results

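The genes described here are 10 that respond fast to growth signals and stress: the immediate early genes Fos, Jun, Junb, Egr1, Atf3, Ier2 and Myc, and the GADD45 genes Gadd45a, Gadd45b and Gadd45g. They were found by gene symbol in the annotation of an Illumina mouse BeadChip, where they have 13 of 25697 probes and are 10 of 16593 named genes. Liver RNA came from 16 male mice on a C57Bl/6Hsd background, 4 per group and 1 array per mouse, either wild type or SHP-/-. SHP, the product of Nr0b2, is a nuclear receptor that binds no DNA of its own and represses other receptors in bile acid and lipid metabolism. The 4 groups were wild type on chow, SHP-/- on chow, wild type on western diet and SHP-/- on western diet. The western diet ran for 6 months from 4 months of age, and all mice, chow groups included, were sampled at 10 months after an overnight fast. How the null allele was made, and the slide each array came from, are not given in the sources used here. The 2 questions of the design are what the diet does in each genotype and what loss of SHP does on each diet.

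Immediate early genes are transcribed within minutes of a stimulus, without new protein, through kinases of the ERK, JNK and p38 pathways that act on factors already bound to their promoters. Fos and Jun proteins pair as the factor AP-1, Atf3 joins the same family of leucine zipper proteins and is raised by many stresses, and Egr1 is a zinc finger factor. The GADD45 proteins are small stress-induced proteins that bind kinases and cell cycle regulators. In liver these genes are known for their rise after injury and partial hepatectomy.

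Of the 10 genes, 9 passed a filter that asked for a detection p-value below 0.05 on at least 4 of 16 arrays, and were tested among 9095 genes. Ier2, an early gene of unsettled function, was detected on 0 of 16 arrays, with a lowest detection p-value of 0.182 and raw signals between 48.6 and 62.7, so no difference was tested for it. Junb, Egr1, Jun and Gadd45g were detected on 16 arrays each, Gadd45a on 15, Gadd45b on 14, Fos on 13, Atf3 on 8 and Myc on 4. Levels below are background-corrected, quantile-normalized log2 signals on a scale on which a signal at background sits a little above 4. They compare arrays for 1 probe and do not rank genes.

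The 16 arrays had mean raw signals between 262 and 384 and between 43.6% and 51.1% of probes detected, and the highest correlation between any pair was 0.9925. The probe for Nr0b2 was detected on 0 of 16 arrays, with raw signals from 47.1 to 59.7, so it checks nothing about the genotype labels. The liver origin showed in the hepatocyte genes, whose summed signal was 69300 to 86100 in wild type chow, 77000 to 84700 in SHP-/- chow, 77000 to 84400 in wild type western and 73200 to 83700 in SHP-/- western, with 4 of 5 genes tested and Tat not detected. The 12 macrophage and Kupffer cell genes tested of 13 with a probe, of which Cd5l was not detected, summed to 2250 to 3500 in wild type chow, 2340 to 3050 in SHP-/- chow, 7740 to 16700 in wild type western and 2970 to 3710 in SHP-/- western. The 8 stellate cell and fibroblast genes summed to 2860 to 3610, 3090 to 3730, 4760 to 6180 and 2940 to 3870 in the same order. In bulk tissue, fewer cells of a type and less RNA per cell cannot be told apart.

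On western diet, wild type livers had more Fos, Jun, Atf3 and Gadd45a RNA than chow livers, and less Gadd45b and Gadd45g. In normalized signal Atf3, at or near background in the other groups, rose 4.0-fold and Gadd45a 4.97-fold, and Gadd45g fell by 2.20 on the log2 scale. In SHP-/- livers Gadd45b and Gadd45g also fell with the diet, and Jun fell by a call that several other settings did not keep. Gadd45a rose there, by a call lost in 4 omissions of an array and under 2 other settings. Its second probe did not pass for that rise (limma adjusted p = 0.0864). Between genotypes on western diet, Fos, Jun, Atf3 and Gadd45a were lower in SHP-/- livers. Of these calls, those for Jun and Atf3 held under every omission of an array and every other setting. The Fos call was lost in 4 omissions and under 3 settings, and the Gadd45a call in 5 omissions and under 3 settings. On chow no member passed the test between genotypes. The diet effects on Jun and Atf3 differed between genotypes by the interaction test.

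**Figure D1:**
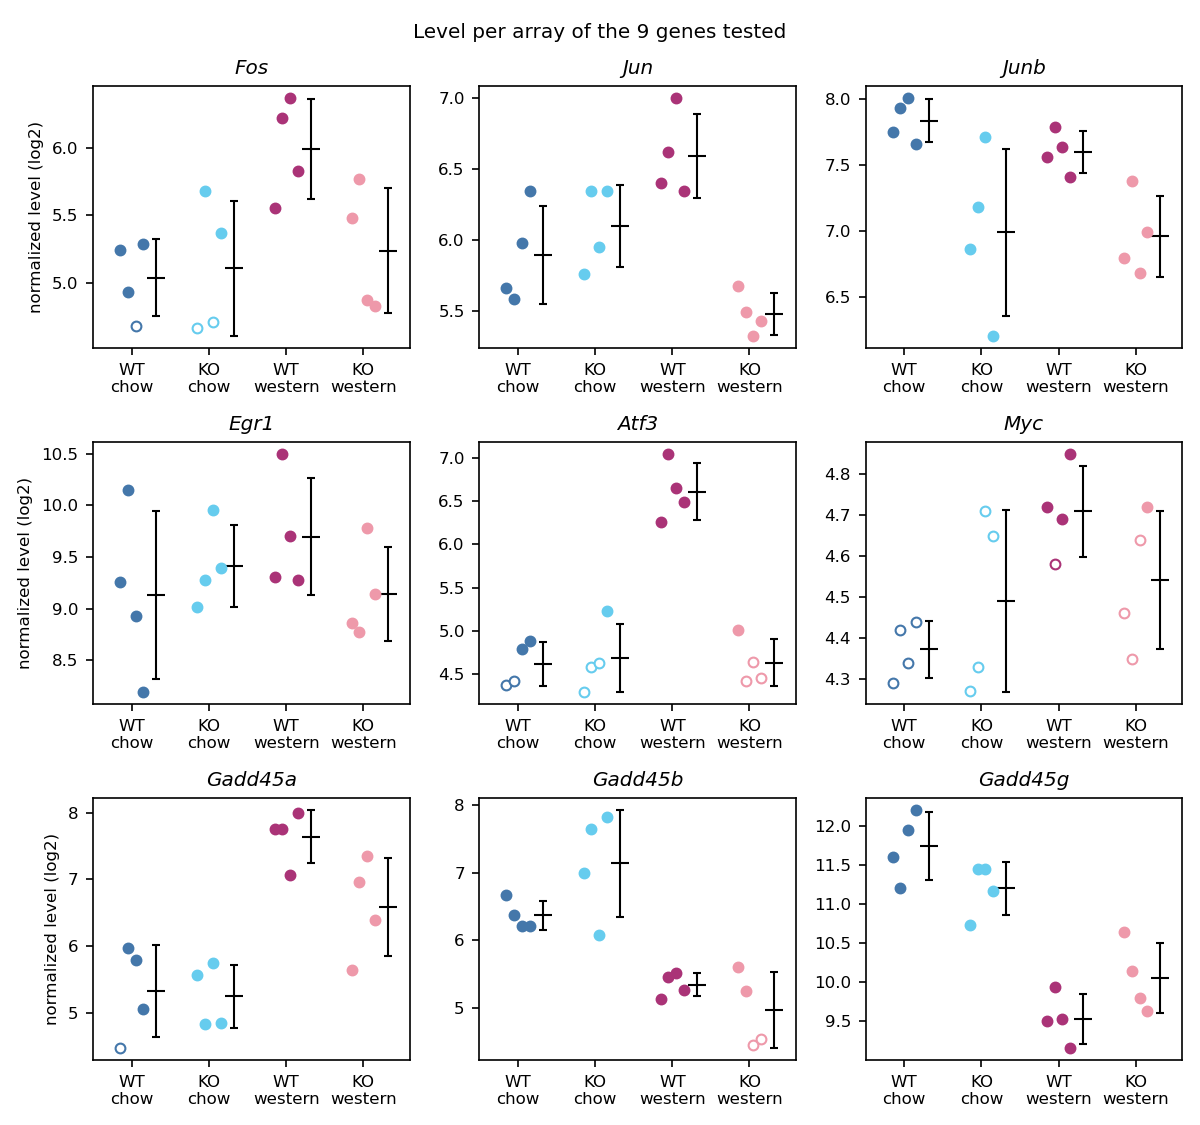
Normalized log2 level of each tested gene on each of the 16 arrays, with 1 panel per gene and the 4 groups along the x axis. Each point is 1 mouse, an open point is an array on which the probe was not detected, and the bar gives the group mean ± SD (n = 4). Wild type western arrays stand above the others for Atf3, from 6.26 to 7.05, while both western groups stand below both chow groups for Gadd45g and Gadd45b.

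Atf3, a repressor and activator of the ATF/CREB family that stress induces in hepatocytes and macrophages, separated 1 group from the other 3. Its levels on the 4 wild type chow arrays were 4.37, 4.42, 4.79 and 4.88, and on the SHP-/- chow arrays 4.29, 4.58, 4.63 and 5.23. On wild type western arrays they were 6.26, 7.05, 6.65 and 6.49, and on SHP-/- western arrays 5.01, 4.42, 4.64 and 4.45. The lowest wild type western array lay above the highest array of every other group, and the other 3 groups overlapped. The probe was detected on 2 of 4 wild type chow, 1 of 4 SHP-/- chow, 4 of 4 wild type western and 1 of 4 SHP-/- western arrays, so levels outside the wild type western group lie at or near background and the folds below are of normalized signal against such levels. The diet raised Atf3 in wild type mice by 2.0 ± 0.20 (log2 difference ± SE, limma adjusted p = 8.5e-07). The diet difference in SHP-/- mice was -0.06 ± 0.20, with a 95% interval from -0.48 to 0.37 (limma adjusted p = 0.905). On western diet Atf3 was 3.95-fold lower in SHP-/- livers (-1.98 ± 0.20, limma adjusted p = 1.61e-06), a comparison that for every gene shares the wild type western arrays with the diet comparison. The interaction, the diet effect in SHP-/- minus that in wild type, was -2.05 ± 0.29 (limma adjusted p = 0.000281), and 0.374% of the 9095 genes had a larger one.

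The promoters of Atf3, Jun and Fos are shown because these 3 members rose together in wild type mice. Each run is the 250 bases before the RefSeq transcription start, 5′ to 3′ on the gene's strand, build GRCm38.p6, with 7 of the 10 members matched in the RefSeq table. Capitals mark the motifs searched on both strands. These were the CRE TGACGTCA, its half-site TGACGT, which lies inside the CRE, the jun1 site TGACATCA, the AP-1 site TGANTCA, the composite C/EBP-ATF site TGATGNAA, the E-box CACGTG, the TATA box TATAAA and the CArG box.
Atf3: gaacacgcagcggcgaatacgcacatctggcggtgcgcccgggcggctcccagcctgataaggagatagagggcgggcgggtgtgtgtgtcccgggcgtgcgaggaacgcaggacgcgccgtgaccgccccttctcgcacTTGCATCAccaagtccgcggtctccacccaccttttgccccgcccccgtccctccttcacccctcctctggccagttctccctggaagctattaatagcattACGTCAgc
Jun: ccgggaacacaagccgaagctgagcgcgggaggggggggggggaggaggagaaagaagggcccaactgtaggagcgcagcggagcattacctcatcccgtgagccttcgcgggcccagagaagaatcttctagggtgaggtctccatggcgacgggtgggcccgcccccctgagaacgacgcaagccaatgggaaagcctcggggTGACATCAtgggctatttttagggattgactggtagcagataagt
Fos: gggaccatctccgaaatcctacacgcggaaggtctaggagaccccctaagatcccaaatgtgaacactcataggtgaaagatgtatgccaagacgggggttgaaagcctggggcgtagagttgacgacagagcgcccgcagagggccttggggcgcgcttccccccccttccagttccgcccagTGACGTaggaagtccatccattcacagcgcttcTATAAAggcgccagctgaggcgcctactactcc
The Atf3 run, chr1:191183334-191183583 on the minus strand, holds a CRE half-site read on the opposite strand 8 to 3 bases before the start and a C/EBP-ATF site on the opposite strand 110 to 103 bases before it. The Jun run, chr4:95052223-95052472 on the minus strand, holds the jun1 site, which binds Jun and ATF dimers, 45 to 38 bases before the start. The Fos run, chr12:85473640-85473889 on the plus strand, holds a CRE half-site 66 to 61 bases and a TATA box 33 to 28 bases before the start. Among 32851 RefSeq promoter windows of the same 250 bases, 6.47% hold the half-site, 1.55% the whole CRE, 2.93% the jun1 site, 3.45% the C/EBP-ATF site, 6.75% the AP-1 site, 12.4% the TATA box and 1.47% the CArG box. The 3 runs are 65.2%, 61.2% and 58.4% G and C, against a median of 52.4% over all windows. A match describes the letters and is not evidence of binding in these livers.

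Fos, the partner of Jun in AP-1, was at 5.24, 4.93, 4.68 and 5.29 on wild type chow arrays and at 4.66, 5.68, 4.71 and 5.37 on SHP-/- chow arrays. On western diet it was at 5.55, 6.22, 6.37 and 5.83 in wild type and at 5.48, 5.77, 4.87 and 4.83 in SHP-/- mice. Every wild type western array lay above every wild type chow array, while the western groups overlapped. The probe was detected on 3 of 4 wild type chow, 2 of 4 SHP-/- chow and all western arrays. Chow levels thus lie near background, and the folds below are of normalized signal. The diet raised Fos 1.94-fold in wild type mice (0.96 ± 0.25, limma adjusted p = 0.00761), against a difference of 0.13 ± 0.25 in SHP-/- mice (limma adjusted p = 0.804). Between genotypes on western diet Fos was 1.69-fold lower in SHP-/- mice (-0.75 ± 0.25, limma adjusted p = 0.0413). That call was lost without wild type western array 2 (limma adjusted p = 0.111) or 3 (limma adjusted p = 0.127), without SHP-/- western array 3 (limma adjusted p = 0.118) or 4 (limma adjusted p = 0.13), with the authors' processed values (limma adjusted p = 0.0563), with no detection filter (limma adjusted p = 0.0805) and with array weights (limma adjusted p = 0.0743). The interaction, -0.83 ± 0.36, did not pass (limma adjusted p = 0.184).

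Jun, the AP-1 subunit that JNK phosphorylates, was at 5.66, 5.58, 5.98 and 6.34 on wild type chow arrays and at 5.76, 6.34, 5.95 and 6.34 on SHP-/- chow arrays. It was at 6.40, 6.62, 7.0 and 6.34 on wild type western arrays and at 5.67, 5.49, 5.32 and 5.43 on SHP-/- western arrays. Each western group lay to one side of the chow group of its own genotype: all 4 SHP-/- western arrays were below all 4 SHP-/- chow arrays. In wild type mice the diet raised Jun 1.63-fold (0.70 ± 0.18, limma adjusted p = 0.0072). The diet difference in SHP-/- mice was -0.62 ± 0.18 (limma adjusted p = 0.0438). The interaction was -1.32 ± 0.26 (limma adjusted p = 0.0044), and on western diet Jun was 2.16-fold lower in SHP-/- livers (-1.11 ± 0.18, limma adjusted p = 0.000259). The fall in SHP-/- mice was close to the threshold: 7 of the 16 omissions of 1 array ended it, with adjusted p between 0.0537 and 0.132, and 7 of the 12 other settings did too, with adjusted p between 0.0539 and 0.129, whereas the rise in wild type mice and the interaction passed under every omission.

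Junb, a Jun relative that can oppose Jun at AP-1 sites, was at 7.75, 7.93, 8.01 and 7.66 on wild type chow arrays and at 6.86, 7.18, 7.71 and 6.20 on SHP-/- chow arrays. On western diet it was at 7.56, 7.79, 7.64 and 7.41 in wild type and at 6.79, 7.38, 6.68 and 6.99 in SHP-/- mice. SHP-/- levels were the lower ones on both diets, without overlap on western diet and with SHP-/- chow array 3 inside the wild type range. The genotype difference was -0.85 ± 0.22 on chow (limma adjusted p = 0.0844) and -0.64 ± 0.22 on western diet (limma adjusted p = 0.0506), and neither passed. Without SHP-/- chow array 3 the chow difference was -1.09 and passed (limma adjusted p = 0.00681). The diet differences, -0.24 ± 0.22 in wild type and -0.03 ± 0.22 in SHP-/- mice, did not pass (limma adjusted p = 0.459 and 0.965).

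Egr1 was detected on all 16 arrays and varied most between mice of 1 group after Gadd45a. Wild type chow arrays were at 9.26, 10.15, 8.93 and 8.19 and SHP-/- chow arrays at 9.02, 9.28, 9.96 and 9.39. Wild type western arrays were at 9.31, 10.50, 9.70 and 9.28 and SHP-/- western arrays at 8.86, 8.77, 9.78 and 9.14. All 4 groups overlapped. The diet difference was 0.56 ± 0.33 in wild type (95% interval -0.13 to 1.26, limma adjusted p = 0.222) and -0.27 ± 0.33 in SHP-/- mice (95% interval -0.97 to 0.42, limma adjusted p = 0.671). Between genotypes it differed by 0.28 ± 0.33 on chow and -0.56 ± 0.33 on western diet (limma adjusted p = 0.833 and 0.266). Without wild type chow array 2, the highest of its group, the wild type difference was 0.90 and passed (limma adjusted p = 0.0363).

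Myc, a factor that drives growth and ribosome production, had 2 probes, of which 1 was detected on 0 arrays and the other on 4. The second probe was at 4.29, 4.42, 4.34 and 4.44 on wild type chow arrays, 4.27, 4.33, 4.71 and 4.65 on SHP-/- chow arrays, 4.72, 4.58, 4.69 and 4.85 on wild type western arrays and 4.46, 4.35, 4.64 and 4.72 on SHP-/- western arrays. It was not above background on any chow array, and on 3 wild type western and 1 SHP-/- western arrays it was. The wild type diet difference of 0.34 ± 0.13 had a limma adjusted p of 0.0499 and was lost in 11 of the 16 omissions of 1 array (adjusted p from 0.0502 to 0.131). It was also lost under 4 of the 11 other settings that tested it, and was 0 with the authors' processed values, so no fold is given. With a stricter detection filter Myc was not tested.

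Gadd45a, the GADD45 gene that p53 induces, was at 4.48, 5.98, 5.79 and 5.07 on wild type chow arrays and at 5.57, 4.84, 5.75 and 4.85 on SHP-/- chow arrays. It was at 7.76, 7.75, 7.07 and 7.99 on wild type western arrays and at 5.65, 6.96, 7.35 and 6.40 on SHP-/- western arrays. On wild type chow array 1 it was not above background. The wild type groups did not overlap. SHP-/- western arrays lay between them, with array 1 inside the chow range and array 3 inside the wild type western range. The diet raised Gadd45a 4.97-fold in wild type mice (2.31 ± 0.35, limma adjusted p = 6.48e-05) and 2.53-fold in SHP-/- mice (1.34 ± 0.35, limma adjusted p = 0.0233). On western diet it was 2.07-fold lower in SHP-/- livers (-1.05 ± 0.35, limma adjusted p = 0.0385), and the interaction of -0.97 ± 0.49 did not pass (limma adjusted p = 0.261).

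A second Gadd45a probe, detected on 15 arrays like the first, gave 2.0 ± 0.29 for the diet in wild type mice (limma adjusted p = 4.88e-05) and -1.02 ± 0.29 between genotypes on western diet (limma adjusted p = 0.0192). For the diet in SHP-/- mice it gave 0.84 ± 0.29 and did not pass (limma adjusted p = 0.0864), so the 2 probes disagree on that call. With the first probe, the call was also lost without SHP-/- chow array 2 or 4 or SHP-/- western array 2 or 3 (limma adjusted p = 0.0784, 0.0654, 0.0681 and 0.0718), with the authors' values (limma adjusted p = 0.0508) and with a robust variance prior (limma adjusted p = 0.06). The genotype call on western diet was lost without any of wild type western arrays 1, 2 and 4 (limma adjusted p = 0.0832, 0.0862 and 0.0944) or SHP-/- western arrays 1 and 4 (limma adjusted p = 0.143 and 0.091), and under 3 of the 12 other settings (limma adjusted p from 0.0588 to 0.105).

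Gadd45b, which binds the kinases upstream of JNK and p38 and responds to NF-kB and TGF-beta, was at 6.67, 6.38, 6.22 and 6.22 on wild type chow arrays and at 7.0, 7.65, 6.08 and 7.83 on SHP-/- chow arrays. It was at 5.14, 5.46, 5.52 and 5.27 on wild type western arrays and at 5.61, 5.26, 4.46 and 4.54 on SHP-/- western arrays. In each genotype all western arrays lay below all chow arrays. The diet lowered it by 1.02 ± 0.30 on the log2 scale in wild type mice, which is 2.03-fold (limma adjusted p = 0.0148). The diet difference in SHP-/- mice was -2.17 ± 0.30, which is 4.51-fold lower (limma adjusted p = 0.000505), the sixth largest change of the 9095 genes in that comparison. SHP-/- western arrays 3 and 4 were not above background.

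The interaction for Gadd45b, -1.15 ± 0.42, did not pass (limma adjusted p = 0.113). On chow SHP-/- mice had 1.70-fold more (0.77 ± 0.30), which did not pass either (limma adjusted p = 0.317). Both passed when 1 mouse was left out: SHP-/- chow array 3 was the lowest of its group at 6.08, and without it the chow difference was 1.12 (limma adjusted p = 0.0343) and the interaction -1.51 (limma adjusted p = 0.0122). Leaving out the lowest array of a group raises that group's mean in any case. With median scaling and all arrays the interaction also passed (-1.27, limma adjusted p = 0.0456).

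Gadd45g, first described as a cytokine-responsive gene, was at 11.60, 11.20, 11.94 and 12.20 on wild type chow arrays and at 10.73, 11.45, 11.44 and 11.17 on SHP-/- chow arrays. It was at 9.50, 9.94, 9.53 and 9.16 on wild type western arrays and at 10.64, 10.14, 9.80 and 9.63 on SHP-/- western arrays. Western arrays lay below chow arrays in each genotype, and the ranges of the western groups overlapped. The diet difference was -2.20 ± 0.23 in wild type mice, 4.59-fold lower (limma adjusted p = 1.04e-06), and -1.14 ± 0.23 in SHP-/- mice, 2.21-fold lower (limma adjusted p = 0.0056).

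The interaction for Gadd45g was 1.06 ± 0.32, just short of the threshold (limma adjusted p = 0.0533). Its second probe, also detected on 16 arrays, gave diet differences of -2.53 ± 0.26 (limma adjusted p = 7.71e-07) and -1.2 ± 0.26 (limma adjusted p = 0.0089) and an interaction of 1.33 ± 0.36 that passed (limma adjusted p = 0.0352). The genotype differences, -0.54 ± 0.23 on chow and 0.52 ± 0.23 on western diet, did not pass (limma adjusted p = 0.376 and 0.121).

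The promoters of the GADD45 genes are printed in the same way because Gadd45a and its 2 relatives went in opposite directions on western diet.
Gadd45a: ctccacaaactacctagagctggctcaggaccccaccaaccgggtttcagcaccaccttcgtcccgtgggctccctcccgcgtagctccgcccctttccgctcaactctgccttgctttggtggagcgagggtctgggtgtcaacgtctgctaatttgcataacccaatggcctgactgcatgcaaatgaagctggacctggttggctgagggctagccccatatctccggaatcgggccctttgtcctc
Gadd45b: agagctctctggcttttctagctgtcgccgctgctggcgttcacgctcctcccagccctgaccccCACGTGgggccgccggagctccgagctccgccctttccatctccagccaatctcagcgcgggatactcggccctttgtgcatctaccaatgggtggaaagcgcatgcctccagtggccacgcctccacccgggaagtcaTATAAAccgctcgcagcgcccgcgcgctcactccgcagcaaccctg
Gadd45g: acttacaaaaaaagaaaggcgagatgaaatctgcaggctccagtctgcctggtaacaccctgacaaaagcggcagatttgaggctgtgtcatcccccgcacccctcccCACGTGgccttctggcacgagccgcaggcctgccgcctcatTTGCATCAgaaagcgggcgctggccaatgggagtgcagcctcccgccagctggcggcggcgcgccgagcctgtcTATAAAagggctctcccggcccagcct
The Gadd45a run, chr6:67037408-67037657 on the minus strand, holds none of the motifs searched. The Gadd45b run, chr10:80929841-80930090 on the plus strand, holds an E-box 185 to 180 bases and a TATA box 46 to 41 bases before the start. The Gadd45g run, chr13:51846425-51846674 on the plus strand, also holds an E-box, 142 to 137 bases before the start, and a TATA box 27 to 22 bases before it, and in addition a C/EBP-ATF site on the opposite strand 101 to 94 bases before it. The E-box is held by 6.02% of all windows. No match in this window says only that these letters are not in it.

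**Figure D2:**
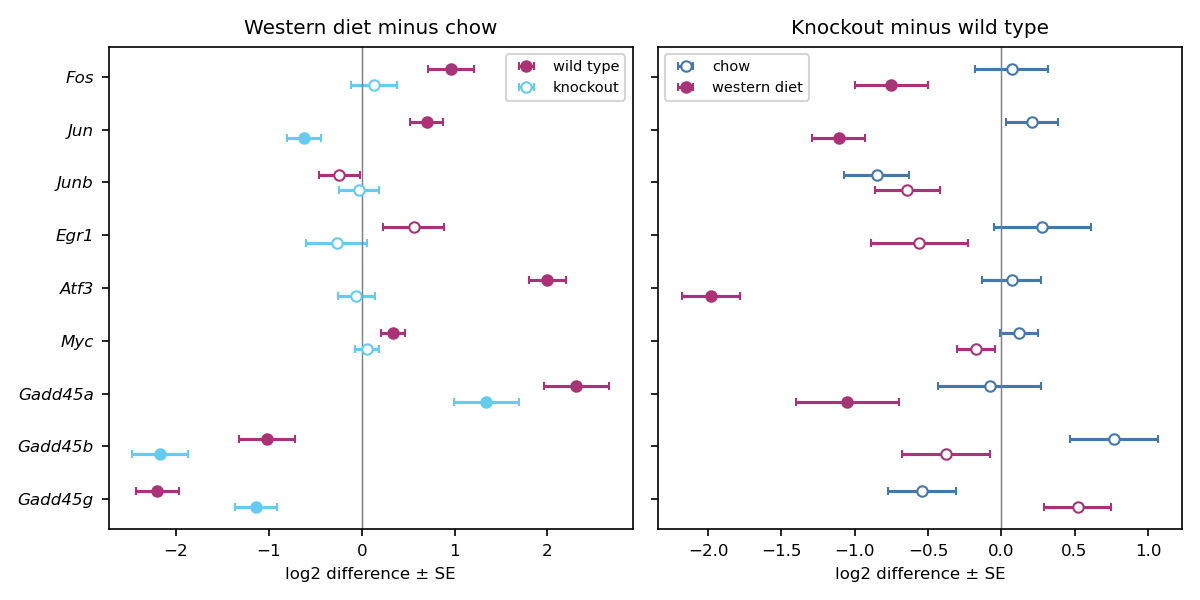
Log2 difference ± SE of each tested gene, western diet minus chow in the left panel (wild type and SHP-/-, here called knockout) and knockout minus wild type in the right panel (chow and western diet), from 4 mice per group. Filled points passed the limma test at an adjusted p below 0.05. Atf3 stands at 2.0 for the diet in wild type mice and at -1.98 between genotypes on western diet, and Gadd45b and Gadd45g lie left of 0 in both genotypes.

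Counted over the 9 members tested, the diet in wild type mice raised 5 (Fos, Jun, Atf3, Gadd45a and Myc) and lowered 2 (Gadd45b and Gadd45g), where 15.5% and 14.1% of all genes tested rose and fell and 29.6% passed in all. All 7 had groups that did not overlap, as did 29% of all genes, although for Jun the gap lay between arrays both at 6.34 to 2 decimals. The median member difference was 0.56, against -0.03 over all genes. Myc, detected on western arrays alone, was tested only because of the groups where it is high, and its call is not support for the count. The diet raised 1 member in SHP-/- mice, Gadd45a, and lowered 3, Jun, Gadd45b and Gadd45g, where 7.88% of all genes passed, 4.52% up and 3.36% down. Their median was -0.06, against -0.01. Jun, Gadd45b and Gadd45g had no overlap there, as did 14.4% of all genes.

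Between genotypes on western diet 4 of 9 members were lower in SHP-/- livers and 0 were higher, where 11% of all genes were lower, 8.82% were higher and 19.8% passed. The median was -0.64, against 0.03 over all genes. Jun, Junb and Atf3 did not overlap, as did 21.2% of all genes. On chow 0 of 9 members passed, where 0.836% of all genes did, 0.440% higher and 0.396% lower in SHP-/-. Every member overlapped between genotypes on chow, and 6.52% of all genes did not. The chow differences of the members ran from -0.85 for Junb to 0.77 for Gadd45b, with 0.07 ± 0.25 for Fos, 0.21 ± 0.18 for Jun, 0.07 ± 0.20 for Atf3 and -0.08 ± 0.35 for Gadd45a (limma adjusted p = 0.954, 0.754, 0.937 and 0.962). Of the interaction tests, 2 of 9 members passed, both with a lower diet effect in SHP-/- mice, where 4.76% of all genes did so, 2.29% had a higher one and 7.05% passed in either direction. With arrays shifted to a common median in place of quantile normalization, the split of all genes called on western diet went from 802 higher and 997 lower in SHP-/- to 208 and 1691, and that of the diet in wild type mice from 1407 up and 1286 down to 2082 and 290. The diet in SHP-/- mice went from 411 up and 306 down to 297 and 50, the interaction from 208 and 433 to 75 and 503, and the chow comparison from 40 and 36 to 21 and 39. No member that passed changed its direction.

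In 2 comparisons many marker genes of 2 other liver cell populations went the way of Fos, Jun, Atf3 and Gadd45a. In the diet comparison in wild type mice 10 of 12 macrophage genes rose and 0 fell, and between genotypes on western diet 10 of 12 were lower in SHP-/- mice. Over all genes 15.5% rose and 14.1% fell in the first comparison, and 11% were lower and 8.82% higher in SHP-/- mice in the second. The diet in SHP-/- mice raised 4.52% of all genes and lowered 3.36%. These shares belong beside each list count here and below. Gpnmb and Lgals3, which mark lipid-laden macrophages, were among the 10 that rose, by 5.35 ± 0.37 and 2.99 ± 0.24 (limma adjusted p = 7.12e-09 and 4.96e-08). Timd4 and Marco, which mark resident Kupffer cells, differed by 0.46 ± 0.23 and 0.13 ± 0.39 (limma adjusted p = 0.142 and 0.838). They were the only genes of the 12 that did not pass. These 4 were picked after their values were seen and do not show that Kupffer cell genes as a set stayed level. Of the 8 stellate cell genes, 5 rose in the first comparison and 4 were lower in the second. In SHP-/- mice the diet raised 3 of 12 macrophage and 1 of 8 stellate cell genes and lowered 0 of either list. There Gadd45a rose (1.34), Jun fell (-0.62), and Fos (0.13) and Atf3 (-0.06) did not pass. The Jun and Gadd45a calls were each lost under several omissions and other settings. Of 5 endothelial genes 1 rose and 1 fell with the diet in wild type mice, of 4 neutrophil genes 2 rose, and of 4 lymphocyte and NK cell genes 0 passed. The part of these cells in the members' differences was not tested.

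**Figure D3:**
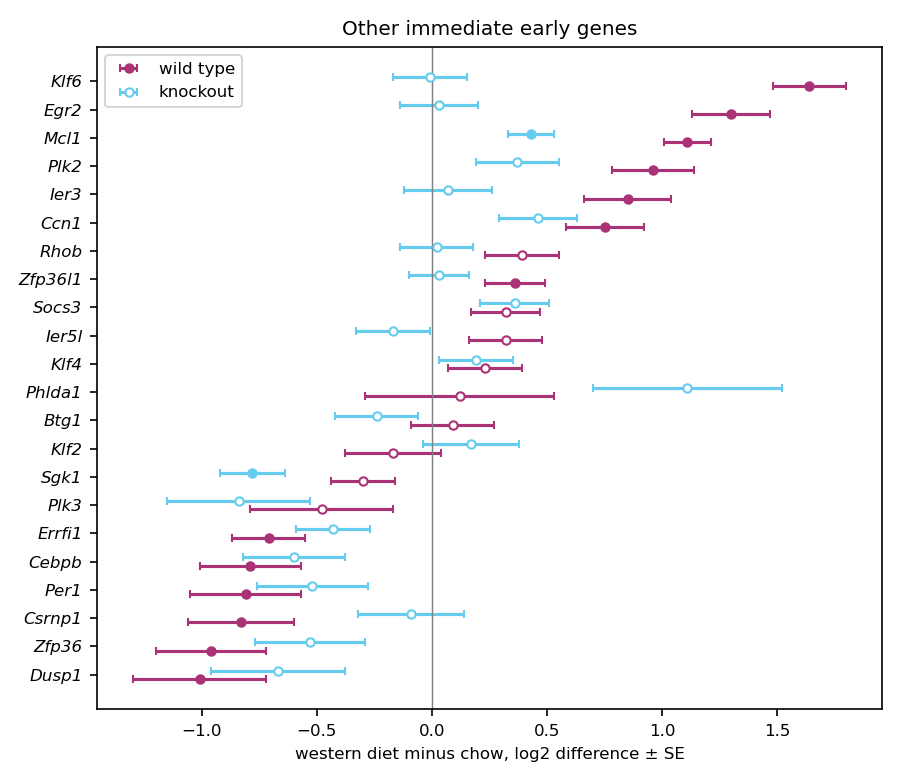
Western diet minus chow, log2 difference ± SE, for the other 22 immediate early genes tested, in wild type and knockout (SHP-/-) mice with 4 mice per group. Filled points passed the limma test at an adjusted p below 0.05. Klf6 stands at 1.64 in wild type and at -0.01 in knockout mice, the points of Egr2 rest on levels not above background in every group but wild type western, and Dusp1 and Zfp36 lie at the lower end.

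Other immediate early genes went both ways, as the members did. Of 32 with a probe, 22 were tested. In wild type mice the diet raised 7 and lowered 6, where 15.5% of all genes rose and 14.1% fell. The median was 0.17, against -0.03 over all genes. Klf6, a zinc finger factor induced in liver injury, was between 6.81 and 7.28 on wild type chow arrays and between 8.37 and 9.02 on wild type western arrays, a rise of 1.64 ± 0.16 (limma adjusted p = 4.88e-07). Klf6 differed in SHP-/- mice by -0.01 ± 0.16 (limma adjusted p = 0.987), and its interaction was -1.65 ± 0.22 (limma adjusted p = 0.000205). Egr2, a relative of Egr1, was detected on 4 of 4 wild type western arrays and on 0 arrays of the other groups. It was therefore tested only because of the group where it is high, is 1 of the 7 raised on that footing, and is given as a description: at least 1.98-fold higher in wild type western than in wild type chow mice and at least 2.03-fold higher than in SHP-/- western mice. Mcl1, an anti-apoptotic BCL2 relative, rose in both genotypes, by 1.11 ± 0.10 in wild type (limma adjusted p = 1.67e-07) and 0.43 ± 0.10 in SHP-/- mice (limma adjusted p = 0.0122).

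The 6 that fell in wild type mice were Dusp1, Zfp36, Csrnp1, Per1, Cebpb and Errfi1, with differences from -1.01 to -0.71. Dusp1, a phosphatase that switches off MAP kinases, fell by 1.01 ± 0.29 (limma adjusted p = 0.0126), and Zfp36, which destabilizes mRNAs with AU-rich elements, fell by 0.96 ± 0.24 on the log2 scale (limma adjusted p = 0.00483). With median scaling 3 of the 22 fell. Of the 22, 1 rose in SHP-/- mice, Mcl1, and 1 fell, Sgk1, a kinase of cell survival, by 0.78 ± 0.14 (limma adjusted p = 0.00244). Between genotypes on western diet 7 were lower in SHP-/- mice and 0 higher, where 11% of all genes were lower and 8.82% higher. The median was -0.20, against 0.03. On chow 0 passed, where 0.836% of all genes did. Of the interactions 3 passed, all negative (5 with median scaling), where 4.76% of all genes had a negative one. Egr2, tested only because of the group where it is high, is 1 of the 7 and 1 of the 3, and supports neither count.

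Of 7 other AP-1 and small Maf genes tested of 11 with a probe, Batf3, a partner of Jun in dendritic cells, rose by 1.31 ± 0.18 with the diet in wild type mice (limma adjusted p = 2.76e-05), was lower by 0.97 ± 0.18 in SHP-/- mice on western diet (difference -0.97, limma adjusted p = 0.000722) and had an interaction of -1.26 ± 0.25 (limma adjusted p = 0.00555). Atf2 fell with the diet by 0.28 ± 0.09 in wild type (limma adjusted p = 0.0198) and 0.32 ± 0.09 in SHP-/- mice (limma adjusted p = 0.0288). The count of this list that fell was 0 in 2 and 6 of 16 omissions, respectively, and under 3 of the 12 other settings in each genotype. Upstream, 2 of 8 genes of the ERK to SRF route fell and 0 rose with the diet in wild type mice, led by Egfr with -1.55 ± 0.26 (limma adjusted p = 0.000211). Of 13 JNK and p38 genes 2 rose and 2 fell, among them Map3k1, a JNK pathway kinase, up by 0.62 ± 0.14 (limma adjusted p = 0.00258). Among all genes tested 15.5% rose and 14.1% fell, and the JNK and p38 counts are near those shares. Of 7 MAP kinase phosphatases 2 rose and 1 fell, with Dusp6, the ERK phosphatase, up by 0.89 ± 0.16 (limma adjusted p = 0.000304) and Dusp1 down. With median scaling 4 rose and 0 fell, and without wild type chow array 4 the fall was not called.

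In SHP-/- mice on western diet, against wild type, the ERK to SRF list had 2 of 8 higher and 0 lower, the JNK and p38 list 0 and 1 of 13, and the phosphatases 0 and 1 of 7. Among all genes 8.82% were higher and 11% lower. The 1 phosphatase call needs a further limit. That phosphatase was Dusp8, detected on 2 of 4 wild type chow, 4 of 4 wild type western and 0 SHP-/- arrays. It was tested only because of the wild type western group, where it is high, and is not support for the count. As a description, it was at least 1.36-fold higher there than in SHP-/- western mice. The count was 0 with the authors' values and with a stricter detection filter. With the diet in SHP-/- mice the counts were 1 up and 1 down of 8, 0 of 13 and 0 of 7, where 4.52% of all genes rose and 3.36% fell. Map2k1, the ERK kinase, was higher by 0.65 in SHP-/- mice on western diet (limma adjusted p = 0.00285) and rose by 0.87 with the diet in them (limma adjusted p = 0.00151).

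Around Myc, the diet in wild type mice lowered 1 of 10 genes of its network, Mycl, by 0.80 (difference -0.80, limma adjusted p = 0.00548), and raised 0. Of 16 MYC target genes 0 rose and 2 fell, where 15.5% of all genes rose and 14.1% fell. Their median was -0.23, against -0.03. Eif4e, the cap-binding factor, was higher by 0.71 in SHP-/- mice on western diet (limma adjusted p = 0.00211), and was 1 of 2 of the 16 that were higher there, with 0 lower. Of the 16, the diet raised 1 and lowered 1 in SHP-/- mice, and 0 of 10 network genes passed.

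Around Gadd45a, 18 p53 target genes were tested of 20 with a probe. In wild type mice the diet raised 7 and lowered 3, where 15.5% of all genes rose and 14.1% fell. The median was 0.23, against -0.03, and the other settings gave 5 to 10 raised and 0 to 4 lowered (0 with median scaling). Phlda3, a p53-induced inhibitor of AKT, rose by 1.61 ± 0.21 (limma adjusted p = 1.15e-05), was lower in SHP-/- mice on western diet (-1.27 ± 0.21, limma adjusted p = 0.00022) and had an interaction of -1.39 ± 0.29 (limma adjusted p = 0.00667). Zmat3, a p53-induced RNA-binding protein, rose by 0.89 ± 0.17 (limma adjusted p = 0.000566). Sesn2, which is also a target of the integrated stress response, fell by 0.58 ± 0.15 (limma adjusted p = 0.00698). On western diet 6 were lower and 2 higher in SHP-/- mice, where the 2 became 0 with median scaling or without wild type western array 3. With the diet in SHP-/- mice 1 rose, Fas by 0.37 (limma adjusted p = 0.0436), and 1 fell, Cdkn1a, the cell cycle inhibitor p21 and a binding partner of GADD45 proteins, by 1.61 ± 0.48 (limma adjusted p = 0.045). Neither call was firm: the count that rose was 0 in 11 of 16 omissions of 1 array and under 5 of the 12 other settings, and the count that fell was 0 in 10 omissions and under 6 settings.

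There were 3 GADD45 binding partners tested of 4 with a probe. Cdk1 was detected on 0 of 4 wild type chow, 1 of 4 SHP-/- chow, 4 of 4 wild type western and 2 of 4 SHP-/- western arrays. It was tested only because of the wild type western group, where it is high, so its differences are a description. In wild type mice Cdk1 was at least 1.40-fold higher on western diet than on chow. On western diet it was lower in SHP-/- mice by 0.61 ± 0.15 (difference -0.61). In SHP-/- mice the diet raised Pcna at least 1.23-fold (limma adjusted p = 0.0246), since it was not above background on their chow arrays.

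Around Atf3, 10 genes of the integrated stress response were tested. In wild type mice the diet raised 2, Nupr1 and Ddit3, and lowered 3, Ddit4, Herpud1 and Sesn2 (1 with median scaling). Among all genes 15.5% rose and 14.1% fell. Nupr1, a stress-induced chromatin protein, was between 4.99 and 5.77 on wild type chow arrays and between 7.27 and 8.45 on wild type western arrays, a rise of 2.28 ± 0.21 (limma adjusted p = 2.56e-07). It was 3.71-fold lower in SHP-/- mice on western diet (-1.89 ± 0.21, limma adjusted p = 3.8e-06), with an interaction of -1.87 ± 0.29 (limma adjusted p = 0.000778). Ddit3, the factor CHOP, rose by 0.80 ± 0.20 (limma adjusted p = 0.00435) and was lower by 0.84 ± 0.20 in SHP-/- mice on western diet (difference -0.84, limma adjusted p = 0.00476). On western diet 3 of the 10 were lower and 1 higher in SHP-/- mice, where 11% of all genes were lower and 8.82% higher. The list's median was -0.14 for the diet in wild type mice, against -0.03 over all genes. Between genotypes on western diet it was -0.14, against 0.03. On chow 1 of the 10 passed between genotypes, Herpud1, lower in SHP-/- mice (-0.73 ± 0.16, limma adjusted p = 0.0384), where 0.836% of all genes passed and 0.396% were lower. That count went to 0 in 8 of 16 omissions and under 4 of the 12 other settings. In SHP-/- mice the diet lowered 1, Atf5, by 0.48 (difference -0.48, limma adjusted p = 0.0172), and raised 0. That count was 0 without SHP-/- chow array 2 and with median scaling.

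Most members varied more between mice of 1 group than most genes did. The residual SD was 0.59 for Gadd45a, 0.58 for Egr1, 0.50 for Gadd45b, 0.41 for Fos, 0.39 for Gadd45g, 0.37 for Junb, 0.32 for Atf3 and 0.28 for Jun, all above the median of 0.20 over all genes, and 0.15 for Myc, which lay near background. For Egr1 99% of genes had a smaller one, and for Gadd45a 99.1%. No array lay above its group mean for all 9 members or below it for all 9. On SHP-/- chow array 1 every member but Gadd45a was below the group mean. On wild type western array 2 every member but Myc was above it. SHP-/- chow array 1 was the lowest of its group for 6 of 9 members, and wild type chow array 4 the highest of its group for 5 of 9. SHP-/- chow array 3 had the highest Junb, Egr1, Myc and Gadd45a of its group and the lowest Gadd45b.

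**Figure D4:**
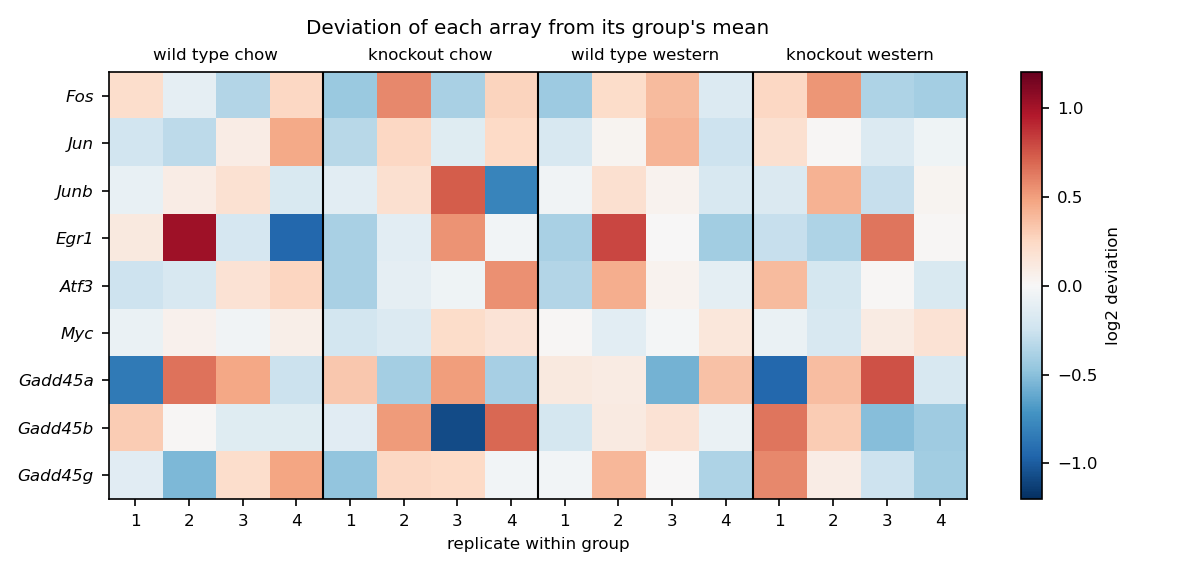
Deviation of each array from its group mean (log2), with the 9 tested genes as rows and the 16 mice as columns, 4 per group. Red marks a level above the group mean and blue a level below it, and the values run from -1.07 to 1.02. Egr1 has its widest deviations in wild type chow mice, and no column is of 1 colour throughout.

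Across the 16 arrays, the genes with the pattern most like each member, out of 9086 other genes, were found by Pearson r. They are a description over arrays that share 4 groups. For Atf3 these were Capg, an actin-capping protein of macrophages, and Slc6a8, the creatine transporter, with r = 0.966 and 0.962. For Fos they were Sparc and Pf4 (r = 0.873 and 0.872), and for Jun Sybu and Icam1, the leukocyte adhesion molecule (r = 0.901 and 0.878). For Gadd45a they were Coq2, an enzyme of coenzyme Q synthesis, and Tmem237 (r = 0.935 and 0.933), for Gadd45b Trmt1 and Rdh11 (r = 0.915 and 0.911), and for Gadd45g Zfp771 and Slc25a25, a mitochondrial carrier (r = 0.944 and 0.939). For Junb they were Clk2 and Map3k6 (r = 0.851 and 0.83), for Egr1 Ociad1 and Ctsl (r = 0.8 and 0.788), and for Myc Inf2 and Slc5a6 (r = 0.867 and 0.816).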

How the data were processed

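Liver RNA of 16 mice was measured on 1 Illumina BeadChip array each; per the labels, 1 µg of total RNA per mouse was amplified to biotinylated cRNA. The deposited non-normalized table gives the intensity of every probe on every array and its detection p-value, per the file headers; the authors made both in BeadStudio (version not stated). The series' value table holds the authors' processed intensity values, with normalization not stated; it was used as an alternative with a floor of 16. From the raw signal, neqc (limma 3.58.1 in R 4.3.3, offset 16, background from the detection p-values) gave log2 levels. Probes with a detection p below 0.05 on at least 4 of 16 arrays were kept (13196 of 25697, 12421 of them named), the probe with the highest mean stood for a gene, and 9095 genes were fitted with limma (a mean per group over all 16 arrays, eBayes with trend, Benjamini-Hochberg over all genes, two-sided, threshold 0.05). Names came from the platform annotation: 23978 probes had 1 symbol, 1719 none and 0 several. P-values measure the spread between individual mice. The members, lists and tests were chosen with earlier results of these data known. All 10 members are described; of each list, up to 2 genes per comparison with the largest difference among those that passed were named, and others named here (Mcl1, Zfp36, Sesn2, Ddit3, Dusp1, Csrnp1, Per1, Cebpb, Errfi1, Gpnmb, Lgals3, Timd4 and Marco) were chosen after their values were seen. For each member the 2 genes with the highest Pearson r were named. Same-numbered mice of different groups deviated from their group means with correlations from -0.17 to 0.19. The labels do not say that the numbers pair mice, and low correlations cannot exclude it, so the pairing was an alternative only. No 2 arrays held identical values. The fit was tested on simulated data. The number of arrays limits the precision. Alternatives changed the background correction, normalization, detection filter, probe choice, variance prior, array weights, samples in the fit and pairing, and left out each array in turn.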

Additional observations from a re-analysis of the deposited data

Results flagged for a closer look

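The diet effect on 2 members differed between genotypes by the interaction test. For Atf3, the diet effect in SHP-/- minus that in wild type mice was -2.05 ± 0.29 on the log2 scale (limma adjusted p = 0.000281): all 4 wild type western arrays lay above all 4 wild type chow arrays, and the SHP-/- groups overlapped. For Jun it was -1.32 ± 0.26 (limma adjusted p = 0.0044), with wild type arrays higher on western diet and SHP-/- arrays lower. Among 36 sets of 4 arrays, 0 had an array far from the other 3 by Dixon's test, which flags about 1 in 20 sets by chance.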

How the results depend on the processing

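Under 12 other settings and 16 omissions of 1 array, no member's difference that passed changed sign (Myc was 0 with the authors' values), and Atf3, Gadd45b, Gadd45g and wild type Fos, Jun and Gadd45a kept their diet calls. Genes passing between genotypes on chow numbered 76, 48 with the authors' values, 124 with array weights and 49 to 108 across omissions (49 without wild type chow array 3); members passing went from 0 to 1 with array weights and to between 0 and 2 across omissions. On western diet members passing went from 4 to 2 with the authors' values and without the detection filter, and to between 2 and 5 across omissions (2 without wild type western array 2 or SHP-/- western array 4). For the diet in SHP-/- mice genes passing went from 717 to 347 with median scaling and to between 359 and 742 across omissions (359 without SHP-/- chow array 2 and 476 without SHP-/- western array 4), and members from 4 to 2 with the authors' values and to between 2 and 4 across omissions (2 without SHP-/- chow array 2 or 4 or SHP-/- western array 2 or 3). Interactions of members went from 2 to 4 with median scaling, where Fos (-1.08, limma adjusted p = 0.0443) and Gadd45b (-1.27, limma adjusted p = 0.0456) joined. Median scaling moved the median of all genes to -0.16 between genotypes on western diet, 0.14 for the diet in wild type mice and -0.11 for the interaction, from 0.03, -0.03 and 0.01. Junb passed on western diet under 6 settings, with adjusted p between 0.007 and 0.0461. The cause of these changes was not tested. With the replicate number as a block, 5 members passed between genotypes on western diet, Junb among them (-0.64, limma adjusted p = 0.0286), and 3 for the diet in SHP-/- mice, without Jun (-0.62, limma adjusted p = 0.0579); genes passing were 70, 1738, 2672, 682 and 614 in the 5 comparisons. Of single member differences, 31 lost and 11 gained a call among the omissions, and 19 lost and 11 gained one among the other settings. Low signal limits Ier2 and Myc, and Atf3 outside wild type western mice. It also limits Fos on chow, Gadd45b in SHP-/- western mice and Gadd45a on wild type chow array 1.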
